A study of Mus musculus with 8 samples.

Results

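*Meis1*, *Meis2*, *Meis3*, *Pbx2*, *Pbx3*, *Pbx4* and *Pknox1* encode homeodomain proteins of the TALE class that serve as HOX cofactors. These 7 genes, of 21911 protein-coding genes annotated for mm10, were followed in H3K9ac ChIP-seq of bone marrow (BM) cells. The labels call the cells whole bone marrow and the methods frozen BM cells, while a caption of the study speaks of c-kit+ cells. The genes were chosen by name, with earlier results of these data known. Every peak within 1 kb of any of their transcription start sites (TSSs) or inside their gene bodies was taken. All mice were C57BL/6 and carried the NUP98-HOXD13 transgene, a fusion that keeps the homeodomain of a HOX protein and causes myelodysplastic syndrome that can progress to acute myeloid leukaemia. The 3 *Gfi1* genotypes differ as follows. *GFI1-36S* and *-36N* mice express the human serine or asparagine form of GFI1 from the murine locus, and *GFI1-KD* mice express less GFI1. Mice received vehicle (DMSO) or curcumin, a plant polyphenol that inhibits histone acetyltransferases, at 20 mg/kg weekly by intraperitoneal injection. Each of the 6 combinations is 1 library, so no difference within a genotype, or between genotypes, could be tested against the spread between mice of a group. Ages, and whether animals were pooled, are not given in the sources used here.

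MEIS and PKNOX proteins pair with PBX proteins, and these pairs join HOX proteins on DNA and sharpen the choice of sites to which they bind. MEIS1 and PBX3 are well known as partners of HOXA9 in myeloid leukaemia, and PKNOX1, also called PREP1, competes with MEIS1 for PBX partners. Acetylation of lysine 9 of histone H3 (H3K9ac) marks active promoters and some enhancers, and GFI1 is a repressor that brings histone deacetylases to its targets. The comparisons ask how this mark at the cofactor genes differed between curcumin and vehicle within a genotype, and between genotypes without curcumin.

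Some facts of the libraries bear on every value below. Between 20354 and 49213 peaks were listed per library, the fewest with curcumin in *GFI1-36S* mice. Fragment counts at the peak summits were recovered exactly from the listed fold enrichment and p-value, with medians of 24 to 36 fragments. The weakest listed peaks held 13 to 17 fragments, so a gene without a peak is not shown to lack the mark. The *GFI1-36S* curcumin library stood apart: 13 of 14 T-cell marker promoters had a peak (6 to 7 in the others), against 1 of 14 neutrophil (9 to 13) and 2 of 10 stem and progenitor marker promoters (9 to 10). It alone had peaks at Y-linked promoters, at 3 of 4, and it alone had none at *Xist*. The peak names inside both *GFI1-36S* lists also give the opposite treatment to the labels. The labels were followed, and with the treatments exchanged each *GFI1-36S* change below takes the other sign. Peak names further carry +ki in the *GFI1-36N* vehicle and kiki in the *GFI1-36N* curcumin list, a difference that the labels do not give. In a bulk sample, fewer cells with the mark and less of the mark per cell cannot be told apart.

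Promoter peaks were present throughout, in each of the 6 libraries, for 5 of the 7 cofactor genes, *Meis3*, *Pbx2*, *Pbx3*, *Pbx4* and *Pknox1*. *Meis1* had one in 3 libraries and *Meis2* in 1. Across all coding genes, 9509 of the 12886 with a promoter peak in any library had one in every library (73.8%). The promoter sequences show where the boundaries of the weak peaks fell. They are from RefSeq on GRCm38.p6, which held entries for 5 of the 7 genes, not for *Pbx3* or *Pknox1*. Each covers a window of 300 bases, 5′ to 3′ on the gene's own strand. The windows of *Meis1* and *Pbx4* span the most upstream TSS used here. Those of *Meis2*, *Meis3* and *Pbx2* lie inside the gene, downstream of that TSS. *Meis1* is shown because its promoter carried peaks in only 3 libraries, and *Meis2* because its printed bases lay in no peak. *Meis3* and *Pbx4* are shown because narrow peaks of several libraries began inside the window. In both *GFI1-36S* libraries the *Meis3* peak began before the window, as did a peak in *GFI1-36N* curcumin.
*Meis1*, chr11:19018920-19019219, minus strand, capitals mark bases inside a peak in each of the 3 libraries with one (146 bases), and the lower-case stretch includes a gap between a pair of peaks:
Meis1: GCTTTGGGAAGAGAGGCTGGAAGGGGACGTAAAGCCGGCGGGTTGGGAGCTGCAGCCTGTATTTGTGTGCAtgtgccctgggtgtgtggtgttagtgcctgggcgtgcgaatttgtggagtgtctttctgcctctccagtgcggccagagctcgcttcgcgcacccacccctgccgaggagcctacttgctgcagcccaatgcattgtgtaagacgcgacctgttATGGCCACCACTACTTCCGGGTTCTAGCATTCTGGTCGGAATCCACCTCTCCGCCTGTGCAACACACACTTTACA
*Meis2*, chr2:116064570-116064869, minus strand, no base inside a peak of any library:
Meis2: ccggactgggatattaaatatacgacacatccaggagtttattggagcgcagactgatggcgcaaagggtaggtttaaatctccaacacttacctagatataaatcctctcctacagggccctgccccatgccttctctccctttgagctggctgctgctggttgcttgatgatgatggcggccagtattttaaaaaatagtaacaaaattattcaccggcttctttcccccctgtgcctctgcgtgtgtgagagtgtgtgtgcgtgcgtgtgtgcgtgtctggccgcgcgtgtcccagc
*Meis3*, chr7:16175145-16175444, plus strand, capitals mark bases inside a peak in all 6 libraries (143 bases):
Meis3: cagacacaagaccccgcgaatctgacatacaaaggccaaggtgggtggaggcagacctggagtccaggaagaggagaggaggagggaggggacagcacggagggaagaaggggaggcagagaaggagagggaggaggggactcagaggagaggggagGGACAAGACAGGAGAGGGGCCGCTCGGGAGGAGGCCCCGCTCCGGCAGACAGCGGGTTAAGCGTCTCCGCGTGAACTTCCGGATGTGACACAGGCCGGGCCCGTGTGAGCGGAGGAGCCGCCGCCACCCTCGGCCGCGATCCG
*Pbx4*, chr8:69832374-69832673, plus strand, capitals mark bases inside a peak in at least 5 libraries (83 bases):
Pbx4: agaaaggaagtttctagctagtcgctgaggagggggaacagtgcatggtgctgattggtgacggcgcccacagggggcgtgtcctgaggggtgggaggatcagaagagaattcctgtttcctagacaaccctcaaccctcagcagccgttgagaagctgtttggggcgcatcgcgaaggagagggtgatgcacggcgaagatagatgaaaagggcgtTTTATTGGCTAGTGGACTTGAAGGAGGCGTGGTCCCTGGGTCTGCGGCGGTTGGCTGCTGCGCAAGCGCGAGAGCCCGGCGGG

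The 4 windows, and that of *Pbx2*, are richer in CpG than most promoters. They hold 15 CpG in *Meis1*, 13 in *Meis2*, 21 in *Meis3*, 29 in *Pbx2* and 19 in *Pbx4*, where the median of 32851 RefSeq promoters is 7. Both strands were searched for the MEIS and PKNOX core TGACAG, the PBX-HOX site TGATTNAT and the GFI1 site TAAATCA, the last of which, read on its other strand as TGATTTA, can open a PBX-HOX match. No match lay in any of the 5 windows. In all promoters of this length, these letters were found in 19.2%, 3.22% and 2.97%.

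To set genes of one library against each other, the strongest promoter peak of every coding gene was ranked by fold enrichment, from 0 (no peak) to 100 (the highest of its library). A difference of 10 points was read beside the share of all genes that differed as much. *Pbx3* and *Pknox1* held the highest ranks, *Pbx2* was intermediate, and *Pbx4*, *Meis3*, *Meis1* and *Meis2* stayed in the lower 30 points. Median ranks over the 6 libraries were 94.0 for *Pbx3*, 76.5 for *Pknox1*, 42.8 for *Pbx2*, 18.4 for *Pbx4*, 7.40 for *Meis3*, 5.92 for *Meis1* and 0 for *Meis2*. With 1 library per group, the ranges across libraries are the only spread at hand. Those of *Meis1*, *Meis2* and *Meis3* overlapped, and that of *Pbx4*, from 14.2 to 25.9, overlapped those of *Meis1* and *Meis3*. *Pbx2*, from 26.9 to 67.7, lay above *Pbx4* and below *Pknox1* without overlap, by small gaps. That place rests in part on summits outside the *Pbx2* promoter. With only peaks counted whose summit lies within 1 kb of a TSS, *Pbx2* ran from 0 to 43.6 and overlapped *Pbx4*. The range of *Pbx3*, from 31.4 to 99.9, contained the whole range of *Pknox1*, from 71.1 to 88.2.

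**Figure D1:**
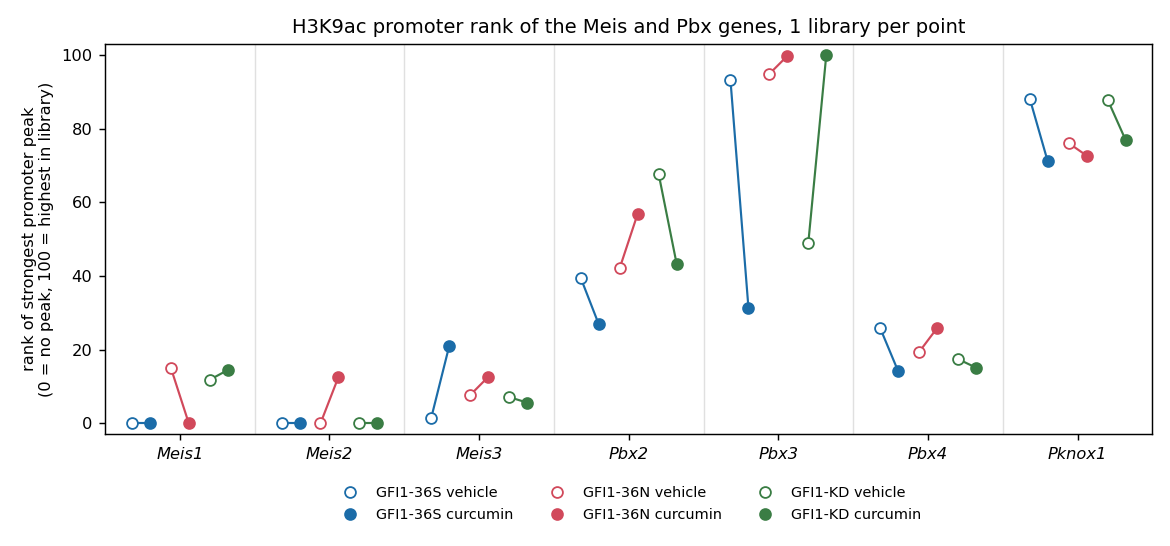
Rank of the strongest H3K9ac promoter peak of each cofactor gene (vertical axis, 0 to 100 within a library) in 6 libraries, with open points for vehicle, filled points for curcumin and a line joining the 2 libraries of a genotype. *Pbx3* spans 68.5 points, from 31.4 in *GFI1-36S* curcumin to 99.9 in *GFI1-KD* curcumin, while *Meis1*, *Meis2* and *Meis3* stay at or below 20.9.

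*Meis1*, the HOXA9 partner most often named in leukaemia, lies on chromosome 11 (18879817-19018985, minus strand). It had no promoter or gene-body peak in either *GFI1-36S* library, nor with curcumin in *GFI1-36N*. Peaks were listed in the *GFI1-36N* vehicle library (rank 15.1), the *GFI1-KD* vehicle library (11.8) and the *GFI1-KD* curcumin library (14.5). Their strongest summits held 49 fragments (Poisson 95% interval 36.3 to 64.8), 45 (32.8 to 60.2) and 47 (34.5 to 62.5), and these intervals, like all those below, cover counting error only. Fold enrichment over the local background was 7.19, 6.31 and 7.96. The intervals of the 3 libraries with a peak overlapped, and the other 3 listed none.

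The shape of the *Meis1* peaks was shared. In *GFI1-36N* vehicle, 2 peaks flanked a gap just upstream of the TSS, 19018389-19019045 with 49 fragments and 19019149-19020002 with 27. In *GFI1-KD* curcumin the pair was 19018049-19018994 with 47 fragments and 19019118-19020122 with 27. In *GFI1-KD* vehicle a single peak of 2255 bp bridged both sides (19018204-19020458) with its summit 889 bp upstream. The printed *Meis1* window was covered over 197, 177 and all 300 bases in these 3 libraries. The *GFI1-KD* vehicle library alone had 2 more peaks inside the gene, at an internal TSS (19016292-19016684, 25 fragments) and in an intron about 4 kb from the start (19014244-19015097, 39 fragments). A weak intronic peak of 24 fragments near 61 kb was listed in *GFI1-36N* vehicle.

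*Meis2*, a paralog best known from brain and limb development (chromosome 2, 115863064-116065839, minus strand), had peaks only with curcumin in *GFI1-36N*. There were 3 of them, each at most 359 bp wide, with 35, 24 and 20 fragments and fold enrichments of 6.23, 4.33 and 3.63. Their summits lay 1747 and 178 bp inside the gene and 1014 bp upstream of the most upstream TSS, on either side of the printed window. Its rank there was 12.6. The weakest peak listed in that library held 13 fragments, and that library also listed the most peaks, 49213.

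**Figure D2:**
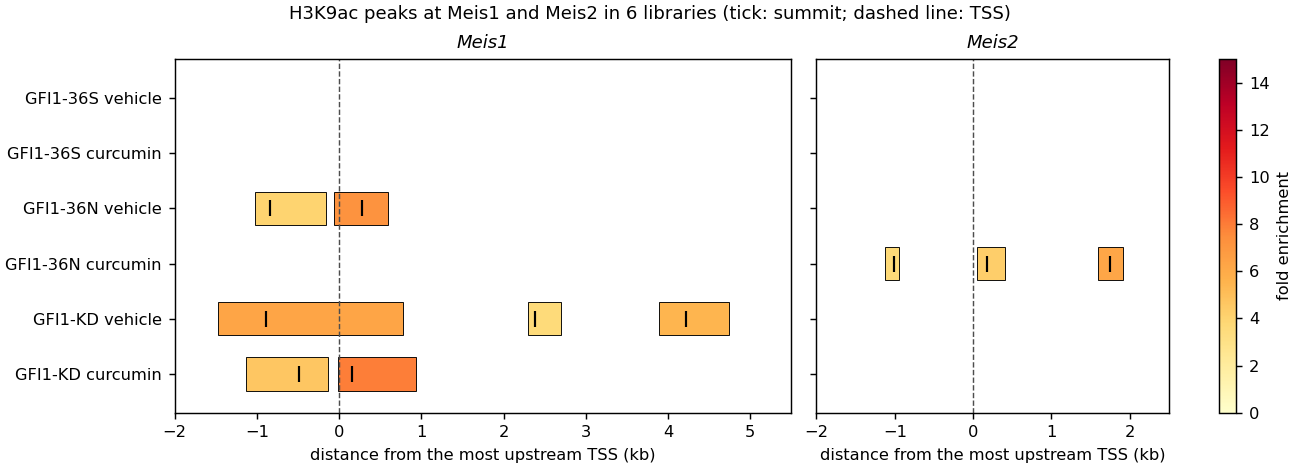
Peaks at *Meis1* (left) and *Meis2* (right) by distance from the most upstream TSS in kb, with 1 row per library, bars for the extent of each peak, ticks for summits and colour for fold enrichment. *Meis1* has peaks in 3 rows, flanking or bridging the TSS, and *Meis2* has 3 narrow peaks in the *GFI1-36N* curcumin row and none elsewhere. The intronic *Meis1* peak near 61 kb lies outside the panel.

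*Meis3*, the third MEIS paralog (chromosome 7, 16175090-16186504, plus strand), had a weak promoter peak in every library. Its summits held 25 and 43 fragments with vehicle and curcumin in *GFI1-36S*, 31 and 35 for *GFI1-36N*, then 33 and 27 for *GFI1-KD*. The ranks were 1.47 and 20.9, 7.66 and 12.6, and 7.13 and 5.65, so the *GFI1-36S* curcumin library was the highest and its vehicle library the lowest. The peak was narrow, from 246 to 842 bp, and its widest form was again in *GFI1-36S* curcumin. With peaks of −log10 q below 5 left out, the *GFI1-36S* vehicle peak was not kept, and *Meis3* then had a peak in 5 libraries. By distance of its 6 ranks, the 3 coding genes most like *Meis3* were *Cd5*, *Lat* and *Ephb6* (5.78, 5.87 and 6.87 points). *Cd5* and *Lat* are T-cell genes, and T-cell marker promoters were high in the same *GFI1-36S* curcumin library, whose part in the *Meis3* value was not tested.

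*Pbx4*, a PBX gene known mainly from testis (chromosome 8, 69832491-69872292, plus strand), had 1 promoter peak in every library, 531 to 1241 bp wide. Its summits held 84 and 38 fragments with vehicle and curcumin in *GFI1-36S*, 60 and 72 in *GFI1-36N*, then 64 and 62 in *GFI1-KD*. Ranks were 25.9 and 14.2, 19.3 and 25.8, and 17.5 and 15.1. All 6 summits lay close together, 292 to 399 bp inside the gene. The peak began inside the printed window in 5 libraries and past its end in *GFI1-36S* curcumin. A faint intronic peak of 19 fragments about 12 kb from the start was listed with curcumin in *GFI1-36N* (69844794-69845052) and in *GFI1-KD* (69844802-69845103). It was listed in no vehicle library and not in *GFI1-36S* curcumin. Its −log10 q was 4.75 and 3.78, below the stricter limit of 5. In *GFI1-36N* curcumin a further faint intronic peak lay near 19 kb, with 19 fragments.

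*Pknox1* (chromosome 17, 31564734-31607693, plus strand) was the steadiest of the strong members. Its ranks were 88.2 and 71.1 with vehicle and curcumin in *GFI1-36S*, 76.1 and 72.7 in *GFI1-36N*, then 87.9 and 77.0 in *GFI1-KD*. By the labels, the curcumin library was thus the lower one in each genotype. The median change of all genes was −6.73 points in *GFI1-36S*, 1.98 in *GFI1-36N* and −2.37 in *GFI1-KD*. The main peak was 1612 to 2016 bp wide, with 184 and 89, 163 and 156, and 254 and 159 summit fragments. It also contains the TSS of an antisense transcript, *AC166172.4*, and of a miRNA gene, *Gm24970*, so its signal cannot be assigned to *Pknox1* alone. A second peak upstream of the TSS was present in all 6 libraries, with 59 fragments in *GFI1-36S* curcumin and 117 to 155 in the others. A small peak at an internal TSS about 30 kb from the start held 19 to 37 fragments in 5 libraries and was not listed in *GFI1-36S* curcumin.

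*Pbx2*, a widely expressed PBX gene (chromosome 17, 34591266-34597400, plus strand), shares its promoter peak with neighbours on the same strand. The nearest TSS of *Gpsm3* lies 1035 bp upstream, and the nearest TSS of *Notch4* transcripts 4225 bp upstream. The strongest peak ranged from 992 bp in *GFI1-36S* curcumin to 7407 bp in *GFI1-KD* vehicle. It covered the *Gpsm3* TSS in 5 libraries, and that of *Notch4* in *GFI1-36N* curcumin and *GFI1-KD* vehicle. In *GFI1-36S* curcumin the same stretch was split into 2 peaks of 40 and 49 fragments.

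The *Pbx2* ranks were 39.4 and 26.9 with vehicle and curcumin in *GFI1-36S*, 42.2 and 56.9 in *GFI1-36N*, then 67.7 and 43.3 in *GFI1-KD*. These do not all describe the same place. The summit lay inside *Pbx2*, 1149 to 1375 bp past its first TSS, in both *GFI1-36S* libraries and in *GFI1-KD* curcumin. It lay 1304 bp upstream in *GFI1-36N* vehicle and 3359 and 3377 bp upstream in *GFI1-36N* curcumin and *GFI1-KD* vehicle, which are the libraries of rank 56.9 and 67.7. With only peaks counted whose summit lies within 1 kb of a *Pbx2* TSS, *GFI1-36N* vehicle and *GFI1-KD* vehicle had none and *GFI1-36N* curcumin had rank 3.25. No direction of change can therefore be given for the *Pbx2* promoter itself in *GFI1-36N* and *GFI1-KD* mice. In *GFI1-36S* both summits lay inside *Pbx2*, and the change as labelled was −12.4 points with this restriction and −12.5 without it.

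**Figure D3:**
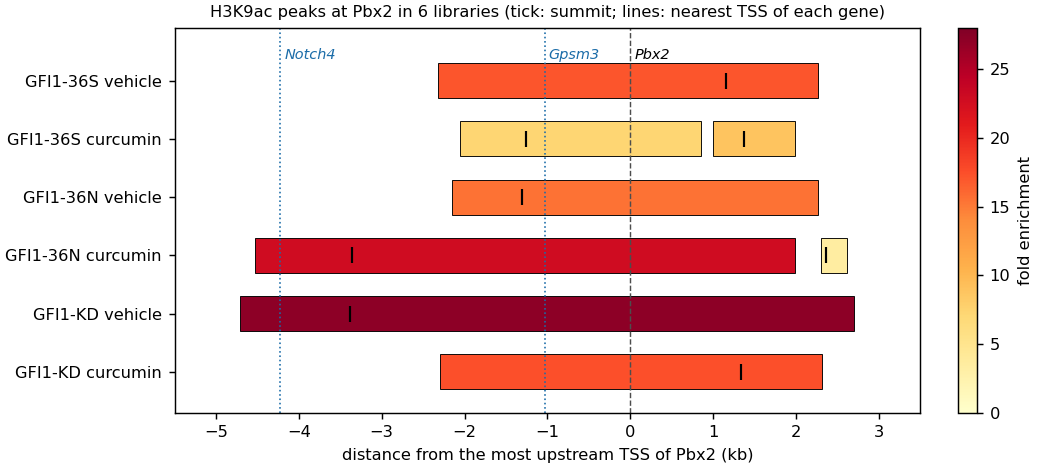
Peaks at *Pbx2* by distance from its most upstream TSS in kb, with 1 row per library, bars for peak extent, ticks for summits, colour for fold enrichment and dotted lines for the nearest TSS of *Gpsm3* and *Notch4*. The longest bars, in *GFI1-36N* curcumin and *GFI1-KD* vehicle, reach past the *Notch4* line and have their summits more than 3 kb upstream of *Pbx2*.

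*Pbx3*, the PBX gene tied most closely to HOXA9 in leukaemia (chromosome 2, 34171457-34373142, minus strand), had the widest range of the cofactors. Its ranks were 93.1 with vehicle and 31.4 with curcumin in *GFI1-36S*, 94.9 and 99.8 in *GFI1-36N*, then 48.9 and 99.9 in *GFI1-KD*. The values of 4 libraries were above 93 points and 2 were below 50, the *GFI1-36S* curcumin and *GFI1-KD* vehicle libraries. The summits held 200 and 53 fragments in *GFI1-36S*, 221 and 276 in *GFI1-36N*, then 154 and 290 in *GFI1-KD*. Fold enrichment was 33.8 and 9.62, 31.9 and 47.9, and 21.2 and 48.2. The range of 68.5 points exceeded that of 98.2% of the 12886 coding genes with a promoter peak in any library. No other annotated gene has a TSS within 1 kb of the strongest peak.

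The 2 low libraries also differed in shape. The strongest *Pbx3* peak was 10122 bp wide in *GFI1-36S* vehicle, 6802 bp in *GFI1-36N* vehicle, 14111 bp in *GFI1-36N* curcumin and 17785 bp in *GFI1-KD* curcumin. It was 2896 bp wide in *GFI1-KD* vehicle and 630 bp in *GFI1-36S* curcumin. A weaker promoter peak of 751 bp lay close to the 630 bp one in *GFI1-36S* curcumin. In *GFI1-36N* vehicle a peak of 3742 bp, counted in the gene body, lay close to the 6802 bp one. These widths thus also depend on where a stretch was split into peaks. Among promoter peaks of *GFI1-KD* curcumin only 1 of 10042 was wider, although that library listed fewer peaks than its vehicle partner (30784 and 39272). Only 1 to 18 promoter peaks per library reached 10 kb. In the 4 high libraries the summit lay 1810 to 1887 bp inside the gene, next to an internal TSS at 34371253. In the 2 low ones it lay 629 and 677 bp inside.

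Downstream of the promoter, *Pbx3* held most of the gene-body signal of the family. Of 29 peaks of the 7 genes that lay in gene bodies and outside promoters, summed over the 6 libraries, 21 were in *Pbx3*, and all 29 had their summit in an intron. Peaks covered 14.6 kb of the gene in *GFI1-36S* vehicle and 1.38 kb in *GFI1-36S* curcumin. They covered 14.7 and 21.1 kb in *GFI1-36N* and 3.76 and 18.8 kb in *GFI1-KD* with vehicle and curcumin. A pair of intronic intervals, picked after the values were seen, recurred. The first, 34359500-34360799, about 13 kb from the start, was covered in 5 libraries, by a peak of its own in *GFI1-36S* vehicle (63 fragments), *GFI1-36N* vehicle (60) and *GFI1-KD* vehicle (46), and by the extended promoter peak with curcumin in *GFI1-36N* and *GFI1-KD*. The second, 34235575-34236249, about 137 kb from the start, was covered in 4 libraries with 34, 30, 57 and 36 fragments. It was missing from the 2 libraries of low *Pbx3* rank.

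**Figure D4:**
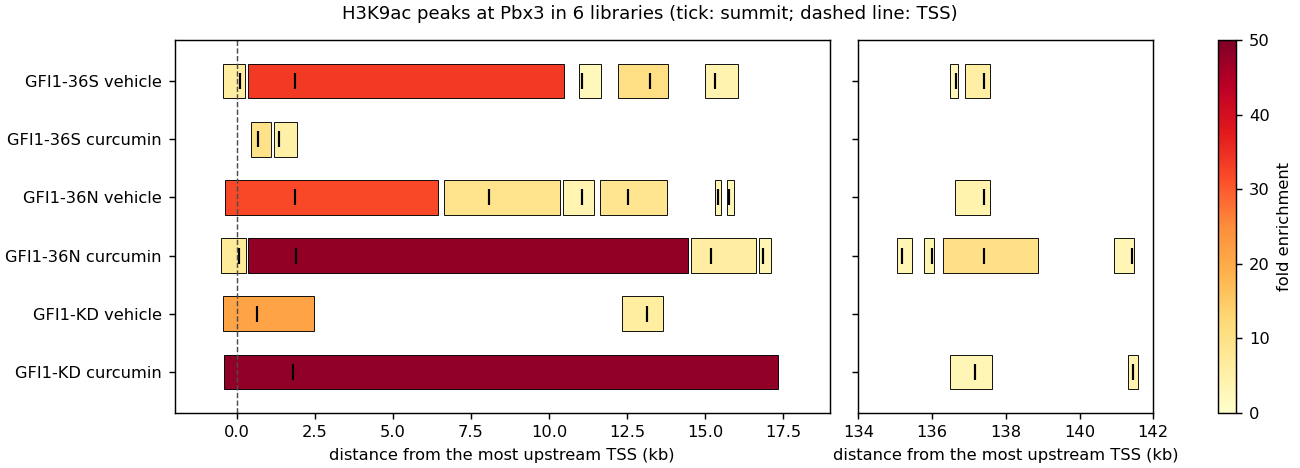
Peaks at *Pbx3* by distance from its most upstream TSS in kb, near the TSS (left) and around the distant intronic site (right), with 1 row per library, bars for peak extent, ticks for summits and colour for fold enrichment. The strongest promoter peak reaches from 630 bp in *GFI1-36S* curcumin to 17785 bp in *GFI1-KD* curcumin. The distant site has no peak in the 2 libraries where that peak is shortest, *GFI1-36S* curcumin and *GFI1-KD* vehicle. A weak *GFI1-36N* curcumin peak near 128 kb lies outside the panels.

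Curcumin and vehicle were then compared within each genotype. In *GFI1-KD* mice, none of the 6 cofactor genes with a peak had it in 1 library only (8.05% of all genes did), and 3 of 6 differed by at least 10 points (30.0% of all genes). *Pbx3* was higher with curcumin by 51.0 points, at the percentile 99.9 of the changes of 12171 genes. *Pbx2* was lower by 24.4 points, with the shift in summit given above, and *Pknox1* by 10.9 points. *Meis1*, *Meis3* and *Pbx4* differed by 2.61, −1.48 and −2.33 points, and the median of all genes was −2.37. Erythroid marker promoters with a peak numbered 9 of 9 with vehicle and 4 of 9 with curcumin, and neutrophil ones 13 and 9 of 14. The part of these differences in the *Pbx3* value was not tested.

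In *GFI1-36N* mice, 2 of 7 genes had a peak in 1 library only (7.78% of all genes), *Meis1* with vehicle and *Meis2* with curcumin. At least 10 points separated the libraries for 3 of 7 (30.6% of all genes). These were *Meis1*, lower by 15.1 with curcumin, *Meis2*, higher by 12.6, and *Pbx2*, higher by 14.7. *Pbx3* was higher by 4.88 points from a rank already at 94.9, *Pbx4* by 6.49 and *Meis3* by 4.92, and *Pknox1* was lower by 3.41. The median of all genes was 1.98. The peak names of this pair differ between vehicle (+ki) and curcumin (kiki), so the treatment cannot be told apart from whatever these tags stand for.

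In *GFI1-36S* mice, none of the 5 genes with a peak had it in 1 library only (18.5% of all genes), and all 5 differed by at least 10 points, as 56.3% of all genes did. *Pbx3* was lower with curcumin by 61.8 points, at percentile 0.909 of 11877 genes. *Pknox1*, *Pbx2* and *Pbx4* were lower by 17.0, 12.5 and 11.7 points, and *Meis3* was higher by 19.5, beside a median of −6.73 over all genes. This pair holds the library with T-cell and Y-linked peaks, so the treatment cannot be told apart from cell content, sex or the reversed names. Without that library, the number of genes with a peak in all remaining libraries stayed at 5.

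Over the 3 genotypes as pairs, a test added after the values were seen, no gene could reach a low p, since an exact sign-flip permutation test of 3 pairs (two-sided) gives 0.25 at the least. *Pknox1*, lower with curcumin in 3 of 3 pairs, had a mean change of −10.5 ± 6.83 points (SD, n = 3, exact p = 0.25). Its changes lay at percentiles 25.7, 25.3 and 18.2 of all genes in *GFI1-36S*, *-36N* and *-KD*, so many genes fell further in each pair. The 3 pairs are different genotypes and not replicates of each other, and they include the *GFI1-36S* pair with the limits given above. *Pbx3* had a mean of −1.97 ± 56.7 (SD, n = 3, exact p = 1), higher with curcumin in 2 pairs and lower in 1. For the other 5 genes the exact p was between 0.5 and 1.

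**Figure D5:**
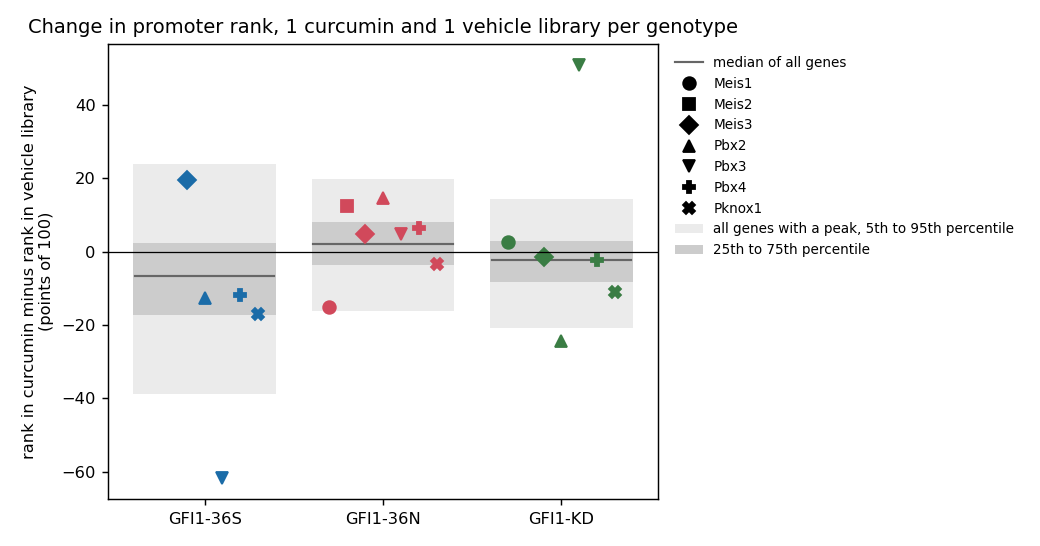
Rank with curcumin minus rank with vehicle for each cofactor gene with a peak in either library (symbols), beside the spread of all coding genes with a promoter peak in either library (grey bars, 5th to 95th and 25th to 75th percentile, line at the median). *Pbx3* lies outside the wider bar in *GFI1-36S* (−61.8) and in *GFI1-KD* (51.0), and *Pbx2* lies below it in *GFI1-KD* (−24.4).

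Summit heights, the fragments over the genome background of the library, gave the same order for *Pbx3*. The curcumin-to-vehicle ratio was 2.33 in *GFI1-KD* (95% counting interval 1.91 to 2.86), 1.55 in *GFI1-36N* (1.29 to 1.85) and 0.278 in *GFI1-36S* (0.202 to 0.378). These ratios compare the strongest summits, which lay at different places in *GFI1-KD* and *GFI1-36S*. With vehicle and curcumin they lay 629 and 1810 bp inside the gene in *GFI1-KD*, and 1873 and 677 bp inside in *GFI1-36S*. In *GFI1-36N* they lay close together, at 1854 and 1887 bp. A ratio of at least 1.5-fold in either direction was found in 2 of 6 cofactor genes in *GFI1-KD* (9.82% of all genes), 2 of 5 in *GFI1-36N* (17.9%) and 5 of 5 in *GFI1-36S* (70.1%). Over all genes the median ratio was 0.886, 1.24 and 0.585, a shift of whole libraries. Each height was therefore also divided by the median of the 9509 promoters with a peak everywhere. *Pbx3* then differed by 2.67-fold in *GFI1-KD* (2.19 to 3.27), by 1.22-fold in *GFI1-36N* (1.02 to 1.46) and stood at 0.494 in *GFI1-36S* (0.358 to 0.671).

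On that scale few other members moved past 1.5-fold. In *GFI1-KD*, *Pbx3* alone of 6 did so, where 8.01% of all genes did, and in *GFI1-36N* none of 5, where 7.49% did. In *GFI1-36S*, *Pbx3* and *Meis3* did so of 5, where 19.5% of all genes did, and *Meis3* was 3.20-fold higher with curcumin (1.91 to 5.47). *Pknox1* stood at 0.889 (0.724 to 1.09), 0.936 (0.747 to 1.17) and 0.901 (0.692 to 1.17) in *GFI1-KD*, *-36N* and *-36S*, intervals that each hold the value 1. *Pbx4* stood at 1.38 (0.954 to 1.98), 1.17 (0.822 to 1.68) and 0.843 (0.559 to 1.25), also with 1 inside. *Meis1* could be compared in *GFI1-KD* only, at 1.48 (0.964 to 2.28), with summits 889 bp upstream with vehicle and 161 bp inside with curcumin.

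The vehicle libraries of *GFI1-36N* and *-KD* were each set against that of *GFI1-36S*, which the comparisons share and whose peak names give curcumin. In *GFI1-36N*, 2 of 6 genes with a peak differed by at least 10 points, near the share of all genes, 32.6%. These were *Meis1*, higher by 15.1 from no peak, and *Pknox1*, lower by 12.1. The relative height ratio of *Pknox1* was 0.906 (0.729 to 1.12), an interval that holds the value 1. *Pbx3* differed by 1.74 points, with a relative height ratio of 1.13 (0.929 to 1.38). In *GFI1-KD*, 3 of 6 did so (26.2% of all genes). *Pbx3* was lower than in *GFI1-36S* by 44.2 points, at percentile 0.0976 of 12290 genes, with a relative height ratio of 0.563 (0.453 to 0.698). Its summit lay 629 bp inside the gene in *GFI1-KD* and 1873 bp inside in *GFI1-36S*. *Meis1* was higher by 11.8, from no peak, and *Pbx2* by 28.3, with its summit elsewhere. The low *GFI1-KD* vehicle value of *Pbx3* enters both this comparison and that with curcumin, so they are not independent of each other. With the *GFI1-36S* treatments exchanged, the *Pbx3* difference was 17.6 points in *GFI1-KD* and 63.5 in *GFI1-36N*, so its direction in *GFI1-KD* rests on the labels of the *GFI1-36S* libraries. *Pbx4* was lower in height than in *GFI1-36S* in *GFI1-KD*, at 0.557 (0.396 to 0.780), and stood at 0.730 (0.515 to 1.03) in *GFI1-36N*.

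The genes with which these cofactors work were read in the same way, as counts of list members that differed by at least 10 points, beside the share of all genes that did so in either direction. Of 39 genes of the HOX clusters, 17 had a promoter peak in either *GFI1-36S* library. With curcumin 10 of these 17 were lower and none higher, a count near the 56.3% of all genes that differed. Their median was −25.6 points, beside −6.73 for all genes. This pair holds the library with few stem and progenitor marker peaks, and the part of cell content in the *Hox* values was not tested. In *GFI1-KD*, 12 of 19 were higher with curcumin and none lower (30.0% of all genes differed), with a median of 17.7 points beside −2.37 for all genes. In *GFI1-36N*, 4 of 17 were higher and 2 lower, near the 30.6% of all genes that differed. Neighbouring *Hox* genes share peaks and are not separate observations. *Hoxa3*, a gene of the HOXA cluster, had the largest changes, from 97.4 to 0 in *GFI1-36S* and from 9.01 to 99.2 in *GFI1-KD*, and like *Pbx3* it was low in *GFI1-36S* curcumin and in *GFI1-KD* vehicle. In *GFI1-36N*, *Hoxb7* was the most increased, from 2.56 to 46.9, and *Hoxa10* the most decreased, from 22.2 to 1.47.

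Of 16 genes known as targets of HOXA9 and MEIS1, 2 were higher and 11 lower with curcumin in *GFI1-36S* (56.3% of all genes differed). There *Lmo2*, a gene of blood stem cells, went from 98.8 to 0 and *Sox4*, a transcription factor of progenitors, from 27.3 to 90.3. Several targets, *Lmo2* and *Erg* among them, are also in the stem and progenitor marker list, of which 2 of 10 had a peak in *GFI1-36S* curcumin. The part of cell content in the target values was not tested. In *GFI1-36N*, 5 of 15 targets were higher and 3 lower (30.6% of all genes). *Myb*, a regulator of progenitor growth, went from 45.4 to 88.7 and the kinase gene *Syk* from 71.8 to 55.7. In *GFI1-KD*, 1 of 16 was higher, the cell cycle kinase gene *Cdk6* (77.5 to 90.0), and 4 were lower, with *Erg*, a stem cell transcription factor, the furthest (60.7 to 43.3), a count near the 30.0% of all genes. Of the 9 other TALE genes, 3 had a peak in either library of *GFI1-36S* (1 higher, 1 lower), 4 in *GFI1-36N* (1 lower) and 3 in *GFI1-KD* (2 higher), beside the same shares of all genes and too few to read against them. *Irx5*, an Iroquois homeobox gene, was the gene with the largest difference in each genotype, at vehicle and curcumin ranks of 37.4 and 0 in *GFI1-36S*, 45.1 and 10.2 in *GFI1-36N*, then 0 and 42.6 in *GFI1-KD*. It thus had no peak in the libraries where *Pbx3* ranked lowest, but it was also low in *GFI1-36N* curcumin, where *Pbx3* was high.

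Genes most like each cofactor over the 6 ranks were named by distance alone. *Pbx3* had no close match, since the nearest, *Oat*, was 32.0 points away. *Pbx4* was 2.90 from *Nme4*, *Meis1* 6.48 from *Cysltr1*, *Pknox1* 7.65 from *Ubp1* and *Pbx2* 11.3 from *Pik3cd*. *Meis2* was at the same ranks as *Myo18b*, both having a peak of equal fold enrichment in *GFI1-36N* curcumin only.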

How the data were processed

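H3K9ac was profiled by ChIP-seq in BM cells (whole bone marrow, per the labels), 1 library for each of 3 genotypes with and without curcumin. The authors trimmed reads with Trim Galore, aligned them to mm10 with BWA-MEM, and called peaks per library by MACS2, leaving out black list regions. The deposited column 7 is the fold enrichment at the summit, a ratio to the local background. The deposited −log10 p, −log10 q and integer score also come from the authors' peak caller, and none is normalized between libraries. The control of each list, the threshold and the handling of duplicates are not given in the sources used here. The input and IgG samples were not used here.

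Genes and TSSs were from GENCODE release M21 (mm10), read with Python 3.11.15, numpy 2.4.6, pandas 2.3.3 and scipy 1.17.1. A promoter reached 1 kb to either side of any coding gene's TSS, and overlap meant at least 1 bp. Summit fragments were solved for from MACS2's formulas for fold enrichment and p, for 100% of peaks (within 0.05 of a whole fragment and 0.002 on the −log10 p scale). Ratios carry exact binomial and counts exact Poisson 95% intervals, which cover counting error only. The steps were tested on simulated data. With 1 library per group, no test within a genotype was possible. An exact sign-flip permutation test over the 3 genotype pairs was added after seeing the data.

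The members and gene lists were chosen with earlier results of these data known. Genes named are the 7 members, the nearest in rank to each, those with a TSS at a member's peak, and the largest rise and fall of each list. Alternatives were stricter or equal-sized peak lists, 3 kb windows, summits within the window, the most upstream TSS, ranks by −log10 p, exchanged *GFI1-36S* treatments, rescaled heights and, added after seeing the data, TSSs of coding transcripts only and the count without the *GFI1-36S* curcumin library.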

Additional observations from a re-analysis of the deposited data

Results flagged for a closer look

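*Pbx3* and *Pbx2* drew attention because their promoter ranks moved by at least 10 points in opposite directions with curcumin in different genotypes. With 1 library per group the difference between genotypes was not tested. *Pbx3* differed by −61.8 points in *GFI1-36S* and by 51.0 in *GFI1-KD*, and 7.02% of all genes with a peak in those libraries moved by at least 10 points in opposite directions. *Pbx2* differed by −12.5 points in *GFI1-36S* and 14.7 in *GFI1-36N* (9.17% of all genes at that limit), and by −24.4 in *GFI1-KD* against 14.7 in *GFI1-36N* (5.94%). Both the *Pbx2* and the *Pbx3* values were taken at summits that lay at different places in these libraries.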

How the results depend on the processing

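Limits: each value is of 1 library, a gene without a peak is not shown to lack the mark, and *GFI1-36S* rests on a library whose markers, sex-linked peaks and peak names stand apart. Replicate numbers give no pairs, since each group holds 1 library, and the 3 genotypes were used as pairs above. The number of cofactor genes with a peak in each library stayed within 1.5 times under every alternative. With the treatments of *GFI1-36S* exchanged, the changes were −19.5 for *Meis3*, 12.5 for *Pbx2*, 61.8 for *Pbx3*, 11.7 for *Pbx4* and 17.0 for *Pknox1*, the vehicle differences from *GFI1-36S* became 63.5 for *Pbx3* in *GFI1-36N* (from 1.74) and 17.6 in *GFI1-KD*, −13.3 and −13.8 for *Meis3* (from 6.19 and 5.67), 15.3 and 40.8 for *Pbx2*, 4.95 and 16.8 for *Pknox1*, and 4 (*GFI1-36N*) and 5 (*GFI1-KD*) genes differed by 10 points in place of 2 and 3. *Pbx2* differed by 43.6 in *GFI1-KD* with the summit inside the window, where 1 gene then had a peak in 1 library only, and with the 3 kb window it differed by −3.67, −2.16 and −26.7 in *GFI1-36N*, *-KD* and *-36S*. With equal numbers of top peaks, genes past 10 points were 3 in place of 5 in *GFI1-36S*, 1 in place of 3 in *GFI1-36N* and 1 in place of 2 between the *GFI1-36N* and *-36S* vehicle libraries, and *Meis3* was the 1 gene with a peak in 1 *GFI1-36S* library only, as it was with −log10 q of at least 5. Gene-body peaks under equal numbers were 2 in *GFI1-36S* vehicle (5 as listed), 3 and 2 in *GFI1-36N* vehicle and curcumin (8 and 10) and 0 in *GFI1-KD* curcumin (3), under −log10 q of at least 5 they were 3 in *GFI1-36S* vehicle and 5 in *GFI1-36N* curcumin, and with promoter peaks counted they were 13 and 8, 18 and 24, and 12 and 12. On rescaled heights, genes past 1.5-fold were 2, 0 and 1 in place of 5, 2 and 2 in *GFI1-36S*, *-36N* and *-KD*. For other changes in outcome the cause was not tested. *Pbx3* kept the direction of its curcumin change in all 3 genotypes under each alternative run for its rank or height other than the exchange.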
